A study of Danio rerio with 12 samples.

Results

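The genes described here are those of DNA replication and S phase, in cells sorted from neuroblastomas of zebrafish. They were taken from a list of 44 gene symbols grouped by role, and 38 of them were found by name among the 14581 genes of the deposited table. A further 2, prim2 and lig1, were found under the older names zgc:110727 and si:dkeyp-35b8.5 and are given beside their complexes but not counted. The other 4 symbols (cdt1, pola1, e2f1 and e2f8) were matched to no row and were not analysed here. The study sorted EGFP+ cells from tumours of zebrafish carrying a MYC transgene (8 libraries) or a MYCN transgene (4 libraries) and measured their RNA by paired-end sequencing after removal of ribosomal RNA. Both groups were thus fluorescent cells sorted from tumours, and neither was a normal tissue. Macrophage marker genes, given below, were measured in both, so not every sorted cell need be a tumour cell. The labels do not give the promoter of either transgene, the strain, the age of the fish or whether each library came from a separate fish, so p-values measure only the spread between these libraries, which may be technical.

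Replication begins with licensing. The origin recognition complex (ORC), with Cdc6 and Cdt1, loads the ring-shaped MCM2-7 helicase onto DNA before S phase, and geminin blocks Cdt1 so that no origin is licensed again in the same cycle. Cdc45 and the GINS complex then turn the loaded ring into an active helicase, RPA coats the single strands, primase and polymerase alpha start each strand, and polymerases delta and epsilon extend them with the sliding clamp PCNA, which RFC loads. Many of these genes are transcribed in a wave at the G1/S boundary under E2F factors, and MYC and MYCN are oncogenic transcription factors of one family that drive cell cycle entry in neuroblastoma and other tumours.

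Values are FPKM, fragments scaled by transcript length and by library depth, so levels of different genes can be set side by side. Depth in reads is unknown, since FPKM carries no count. Between 8688 and 9844 genes reached 1 FPKM in a MYC library and between 8858 and 9513 in a MYCN library. The noradrenergic marker genes dbh (1803 ± 548 FPKM in MYC and 2499 ± 632 FPKM in MYCN) and th (518 ± 182 FPKM in MYC and 646 ± 217 FPKM in MYCN) were high in both groups. Of the 8 sympathoadrenal markers, phox2bb and hand2 fell, and neither passed without MYCN 1, without MYCN 2 or against MYC 5 to 8 alone, nor hand2 without MYCN 4 or against MYC 1 to 4 alone. The summed level of the 8 was 3408 to 5020 FPKM in MYC and 5461 to 7305 FPKM in MYCN, without overlap. Among single genes, 5.60% of those tested had every MYC library below every MYCN library. Neither dbh nor th was called. By log2 fold change 6 of the 8 were lower in MYC and 2 were higher, up to 0.73. None rose in the main fit, and 1 rose without MYC 7 or in a fit blocked on the replicate number. With quantile normalisation and with that block 3 fell, where 8.70% and 13.3% of all genes fell. Genes listed at 0 in some libraries and at 5 FPKM or more in others split the table into MYC 1 to 4, MYC 5 to 8 and MYCN 1 to 4: over 225 such genes, the pattern of zeros correlated at a mean of 0.50, 0.303 and 0.431 within these sets, and at 0.148, 0.174 and 0.145 with libraries outside them. The set of MYCN libraries and the genotype cannot be told apart, so the members are also given for each MYC set.

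Tests were run on log2(FPKM + 1) for the 9606 genes that reached 1 FPKM in 4 or more of the 12 libraries, with limma and Benjamini-Hochberg adjustment over all of them. Log2 fold changes are MYC minus MYCN on that scale, with the SE, and understate the change of low genes. "Rose" and "fell" mean higher or lower in MYC with an adjusted p under 0.05. FPKM values are means ± SD of 8 MYC and 4 MYCN libraries, and where single libraries are given, the lowest, median and highest MYC library precede MYCN 1 to 4 in number order.

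Of the 33 members tested, 6 fell in MYC libraries and none rose. The 6 were 5 subunits of the MCM2-7 helicase (mcm3, mcm4, mcm5, mcm6 and mcm7) and the ORC subunit gene orc6, all licensing genes. The other 27 members did not pass, among them every tested gene of GINS, the polymerases, the clamp and its loader, RPA and chromatin assembly. The share of members that fell was 18.2%, against 7.63% of all genes tested, and 5.77% of all genes rose. At an unadjusted p under 0.05, 12 members were lower in MYC and 1, gmnn, was higher, where 15.7% of all genes were lower and 12.9% higher. The median log2 fold change of the 33 members was -0.34, with 27 of them lower in MYC, against -0.05 over all genes tested, of which 53.9% were lower. In bulk RNA of this kind, fewer cells of a type and less RNA per cell cannot be told apart.

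**Figure D1:**
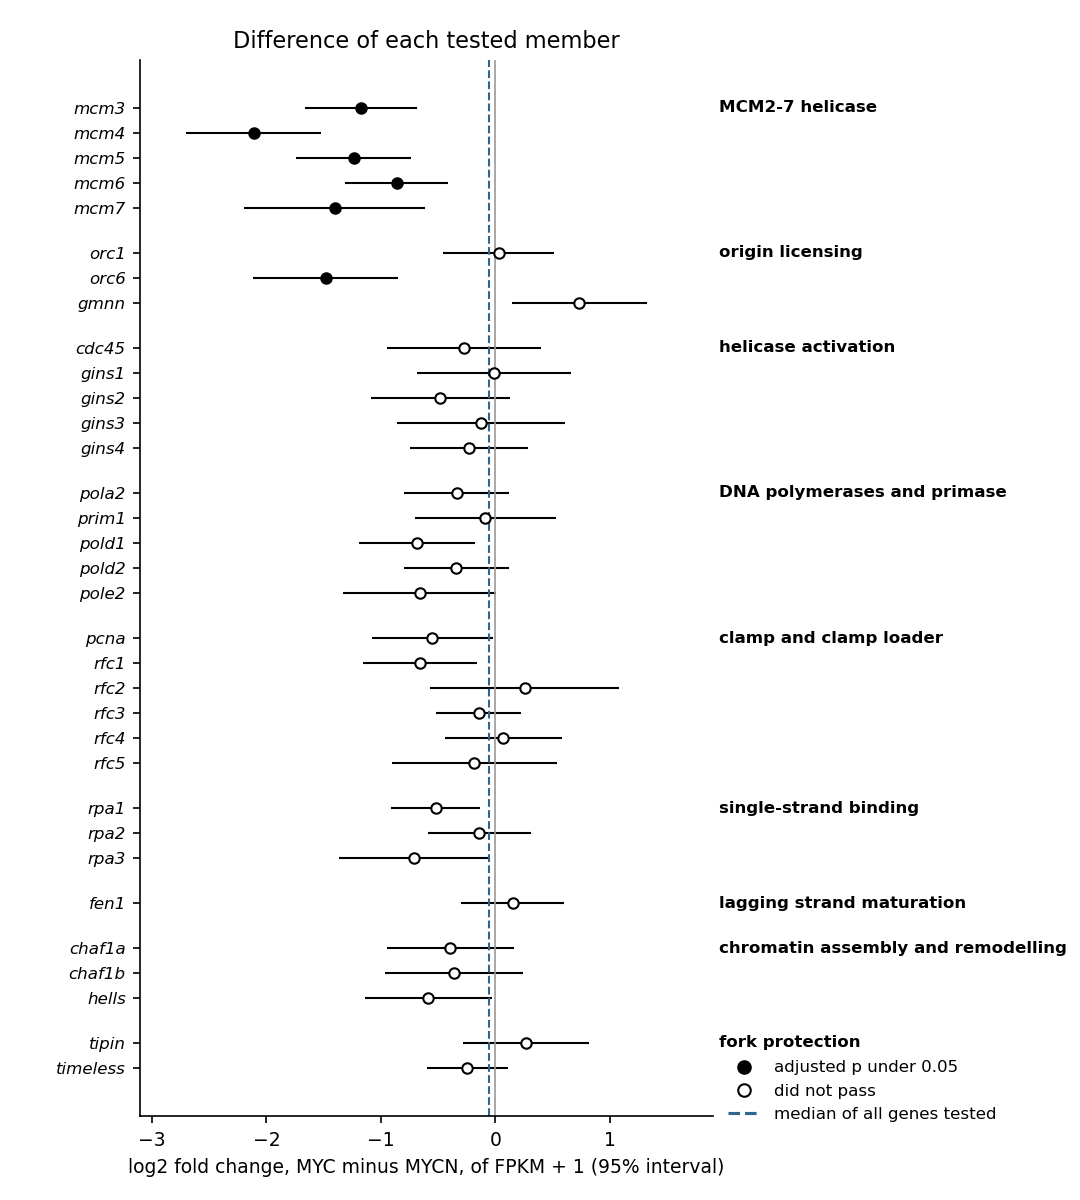
Log2 fold change of FPKM + 1 (MYC minus MYCN, 8 and 4 libraries) for each of the 33 members tested, grouped by complex, with 95% intervals. Filled points, those with an adjusted p under 0.05, are mcm3 to mcm7 and orc6, and mcm4 lies farthest from 0 at -2.11.

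The filter on low values left out 5 of the 38 members. One was mcm2, listed at 0 in all 12 libraries. The table also lists at 0 throughout the translation elongation factor gene eef1a1l1, so this 0 need not mean that mcm2 was not expressed, and the helicase is described by its other 5 subunits. The other 4, cdc6, mcm10, pole and e2f7, were low in both groups. Of the 33 tested, 28 were at 1 FPKM or more in every library, which includes all 6 that fell. The remaining 5 (orc1, gmnn, cdc45, gins3 and chaf1b) were under 1 FPKM in some library.

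mcm4, a subunit of the hexameric ring that unwinds DNA ahead of the fork, differed most. It was at 8.39, 19.9 and 26.1 FPKM in the lowest, median and highest MYC library, against 74.3, 63.8, 118 and 77.3 FPKM in MYCN 1 to 4. The highest MYC library thus lay well below the lowest MYCN library. Its log2 fold change was -2.11 ± 0.28 (95% interval -2.71 to -1.52, adjusted p = 0.000285), a ratio of FPKM + 1 of 0.231.

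Its partner subunits mcm3 and mcm5 also had no overlap between the groups. mcm3 was at 7.39, 11.6 and 16.9 FPKM in MYC and at 29.6, 26.6, 31.2 and 20.6 FPKM in MYCN, with a log2 fold change of -1.17 ± 0.23 (adjusted p = 0.00426). mcm5, the least abundant of the measured subunits, was at 4.25, 5.01 and 8.10 FPKM in MYC and at 14.8, 10.1, 22.6 and 11.8 FPKM in MYCN (-1.24 ± 0.24, adjusted p = 0.00376). In both genes even the lowest MYCN library was above every MYC library.

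mcm6 differed least of the 5, and its groups again did not overlap. It was at 19.1, 32.7 and 41.9 FPKM in MYC and at 61.3, 58.4, 59.2 and 51 FPKM in MYCN (-0.86 ± 0.21, adjusted p = 0.0149). MYCN libraries were close together for this subunit, with an SD of 4.49 FPKM around a mean of 57.5 FPKM.

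mcm7, the most abundant of the measured subunits, was at 19.2, 46.6 and 69.2 FPKM in MYC and at 53.9, 133, 204 and 105 FPKM in MYCN. MYCN 1, at 53.9 FPKM, lay within the MYC range, and 5 of the 8 MYC libraries were below it. Its log2 fold change was -1.40 ± 0.37 (adjusted p = 0.0224). This call rests on single MYCN libraries: the adjusted p was 0.0724 without MYCN 2, 0.0741 without MYCN 3 and 0.0598 without MYCN 4. The calls of mcm3, mcm4, mcm5, mcm6 and orc6 held whichever of the 12 libraries was left out, with adjusted p up to 0.0498 (mcm6).

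**Figure D2:**
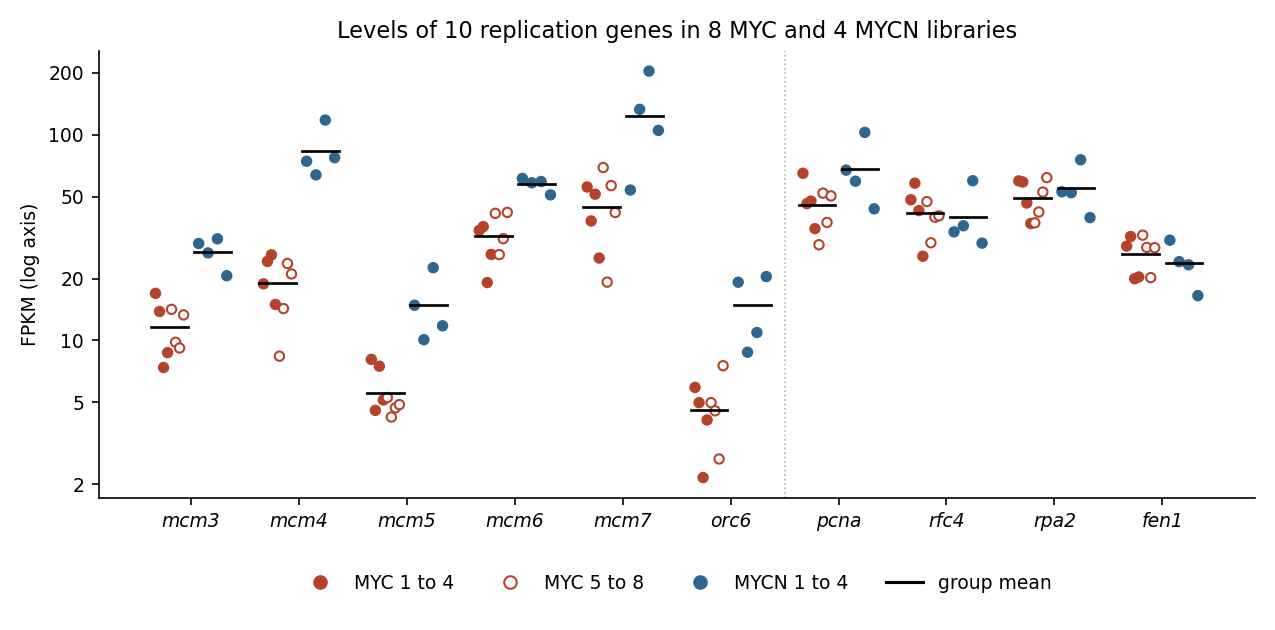
FPKM (log axis) of the 6 members that fell and of 4 members of other complexes, 1 point per library, with MYC left of MYCN for each gene and bars at the group means. For mcm3, mcm4, mcm5, mcm6 and orc6 every MYC point lies below every MYCN point, while the points of pcna, rfc4, rpa2 and fen1 overlap.

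FPKM being per length, the subunits can be compared within a library. The summed level of mcm3 to mcm7 was 113 ± 23.8 FPKM in MYC (73.7 to 139) and 306 ± 88.6 FPKM in MYCN (234 to 435). mcm7 took 38.4% ± 8.5 of this sum in MYC (26.1 to 50%) and 38.7% ± 11 in MYCN (23.0 to 46.9%, lowest in MYCN 1), and mcm5 stayed near the bottom, with 5.1% in MYC and 4.9% in MYCN. mcm4 held 17.3% ± 5.3 of the sum in MYC (6.06 to 23.4%) and 27.5% ± 4.2 in MYCN (21.9 to 31.8%), and mcm6 held 28.8% ± 6.0 in MYC and 19.8% ± 5.1 in MYCN. The order of these subunits accordingly differed: mcm4 was above mcm6 in 1 of 8 MYC libraries, MYC 3, and in 4 of 4 MYCN libraries. In MYCN 2 they were close, with mcm4 at 63.8 FPKM and mcm6 at 58.4 FPKM. Reads of mcm6 may be shared with mcm6l, a gene described below, which was at 7.12 FPKM in MYCN 2. No test was made on shares, and those of mcm4 overlapped between the groups.

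**Figure D3:**
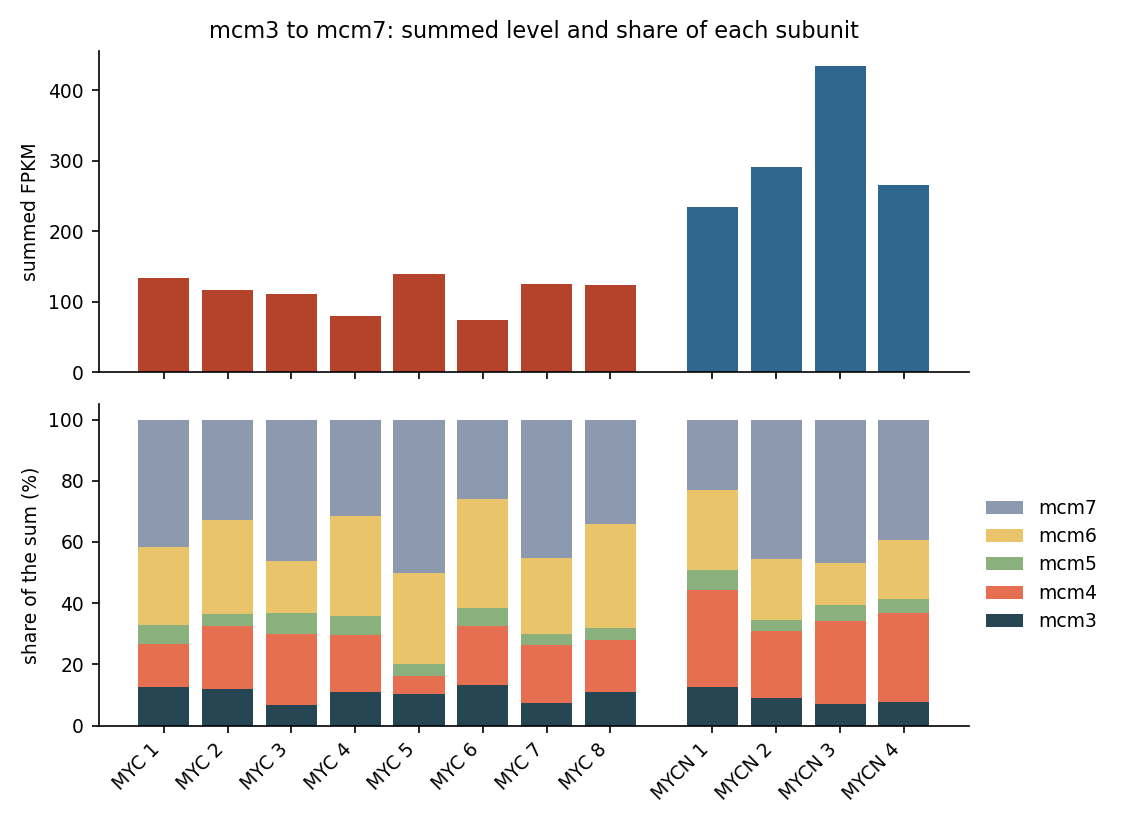
Summed FPKM of mcm3 to mcm7 in each library (top) and the share of each subunit in that sum in percent (bottom), MYC libraries left of MYCN libraries. The sums span 73.7 to 139 FPKM in MYC and 234 to 435 FPKM in MYCN, and the mcm4 share runs from 6.06 to 23.4% in MYC and from 21.9 to 31.8% in MYCN.

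Zebrafish carry further genes named for their likeness to MCM subunits. These are not members, and they were looked up after the values were seen because reads of close copies could be split between them, and how such reads were assigned is not given in the sources used here. mcm6l averaged 0.682 ± 0.486 FPKM in MYC (0.107 to 1.48) and 7.58 ± 0.652 FPKM in MYCN (7.12 to 8.52), a log2 fold change of -2.40 ± 0.23 (adjusted p = 2.1e-05). Its level in MYCN was well under that of mcm6, and both genes were lower in MYC. mcm3l did not exceed 0.104 FPKM in any library.

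Origin licensing also holds orc6, the smallest subunit of ORC, which fell. It was at 2.16, 4.77 and 7.54 FPKM in MYC and at 19.2, 8.77, 10.9 and 20.4 FPKM in MYCN, with no overlap. The log2 fold change was -1.48 ± 0.30 (95% interval -2.12 to -0.85, adjusted p = 0.00496). orc1, the large ATPase subunit of ORC, was near the detection filter in both groups, at 0.959 ± 0.315 FPKM in MYC and 0.986 ± 0.694 FPKM in MYCN (0.03, 95% interval -0.46 to 0.51, adjusted p = 0.953).

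The remaining ORC subunit genes, which are not members and are named to complete the complex after their values were seen, did not pass. orc2, listed as zgc:153041, was at 29.5 ± 5.91 FPKM in MYC and 20.2 ± 6.39 FPKM in MYCN, with a log2 fold change of 0.55 (adjusted p = 0.109). orc3, orc4 and orc5 lay between -0.29 and 0.11 on the same scale, with levels between 14.3 and 21.2 FPKM on average in either group. Of the ORC genes tested, orc6 was the only one called.

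gmnn encodes geminin, the inhibitor of Cdt1, and was the only member higher in MYC at an unadjusted p under 0.05. It was at 2.06, 3.95 and 6.25 FPKM in MYC and at 2.64, 2.11, 1.93 and 0.853 FPKM in MYCN, with overlap (0.74 ± 0.28, 95% interval 0.14 to 1.33, adjusted p = 0.0949). With median-ratio scaling between libraries its adjusted p was 0.0386, and with library weights 0.0450. cdc6, the ATPase that loads MCM rings together with ORC, ranged from 0.0626 to 1.89 FPKM in MYC, with a median of 0.270, and from 0.356 to 1.53 FPKM in MYCN.

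Genes that activate the loaded helicase showed no call. mcm10, which is needed for the switch to an active helicase, stayed between 0.121 and 0.402 FPKM in MYC and between 0.264 and 0.403 FPKM in MYCN and was not tested. cdc45, the partner of MCM2-7 and GINS at the fork, was at 1.69 ± 1.31 FPKM in MYC and 2.06 ± 0.805 FPKM in MYCN (-0.27, 95% interval -0.94 to 0.40, adjusted p = 0.620). Of the 4 GINS genes, gins2 was the most abundant, at 14 ± 4.24 FPKM in MYC and 20.3 ± 7.02 FPKM in MYCN (-0.48, 95% interval -1.09 to 0.13, adjusted p = 0.295). MYCN 4 had 9.76 FPKM of it, against 23.3 to 24.3 FPKM in the other MYCN libraries. gins1, gins3 and gins4 had log2 fold changes of -0.01, -0.12 and -0.23 and average levels between 2.04 and 4.24 FPKM. gins2 made up 63.4% ± 6.2 of the summed GINS level in MYC and 68.7% ± 7.3 in MYCN, and was the most abundant of the 4 in every library.

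Primase and the polymerases were lower on average in MYC without passing. The lowest adjusted p among them was that of pold1, the catalytic subunit of polymerase delta, which copies the lagging strand. It was at 3.52, 5.32 and 7.48 FPKM in MYC and at 8.6, 7.78, 14.5 and 6.35 FPKM in MYCN, and 7 of 8 MYC libraries lay below the lowest MYCN library (-0.68 ± 0.24, 95% interval -1.19 to -0.17, adjusted p = 0.0733). Its accessory subunit pold2 was at 4.64 ± 1.11 FPKM in MYC and 6.17 ± 1.61 FPKM in MYCN (-0.34, adjusted p = 0.327). pole2, the second subunit of the leading strand polymerase epsilon, was at 8.68 ± 3.08 FPKM in MYC and 14.6 ± 7.38 FPKM in MYCN (-0.66, adjusted p = 0.180). pole itself, the catalytic subunit, ranged from 0.125 to 0.699 FPKM in MYC and from 0.349 to 1.01 FPKM in MYCN and was not tested.

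The priming enzymes were similarly placed. pola2, the accessory subunit of polymerase alpha, was at 6.69 ± 1.44 FPKM in MYC and 8.78 ± 2.40 FPKM in MYCN (-0.34, adjusted p = 0.332). prim1, the catalytic primase subunit, was at 2.96 ± 1.44 FPKM in MYC and 3.19 ± 1.33 FPKM in MYCN (-0.09, 95% interval -0.70 to 0.53, adjusted p = 0.878). prim2, the large primase subunit found under its older name, was at 6.97 ± 3.22 FPKM in MYC and 8.05 ± 1.86 FPKM in MYCN (-0.26, adjusted p = 0.614). None of these intervals left out a difference of 0.

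pcna, the sliding clamp that holds polymerases on DNA and a common marker of S phase cells, did not pass. It was at 29.2, 46.9 and 64.9 FPKM in MYC and at 67.3, 59.4, 103 and 43.6 FPKM in MYCN (-0.55 ± 0.25, 95% interval -1.08 to -0.02, adjusted p = 0.157). The groups overlapped, with 3 of 8 MYC libraries below MYCN 4. rfc1, the large subunit of the loader that opens the clamp, was at 1.64, 3.33 and 3.86 FPKM in MYC and at 7.56, 4.89, 4.17 and 4.41 FPKM in MYCN, with no overlap (-0.66 ± 0.23, adjusted p = 0.0779). It passed with median-ratio scaling (adjusted p = 0.0434), quantile normalisation (0.0478) and library weights (0.0411).

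The small loader subunits rfc2 to rfc5, which also serve in other clamp loaders, lay on both sides of 0. Their log2 fold changes were 0.26, -0.15, 0.07 and -0.18, with adjusted p between 0.635 and 0.883. rfc5 was the most abundant, at 73.5 ± 33.3 FPKM in MYC and 78.9 ± 23.5 FPKM in MYCN, and rfc4 was at 41.5 ± 10.3 FPKM in MYC and 39.8 ± 13.5 FPKM in MYCN (95% interval of the log2 fold change -0.44 to 0.58). The summed level of the 5 RFC genes was 160 ± 51.9 FPKM in MYC and 163 ± 27.7 FPKM in MYCN.

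RPA, the trimer that protects single-stranded DNA, was lower on average in all 3 subunits and none passed. rpa1, the large subunit that binds DNA, was at 27.5, 41.8 and 51.6 FPKM in MYC and at 65.3, 59.1, 58 and 51.9 FPKM in MYCN, so that the highest MYC library lay just under the lowest MYCN library (-0.52 ± 0.18, 95% interval -0.91 to -0.13, adjusted p = 0.0749). It passed with median-ratio scaling (adjusted p = 0.0300), quantile normalisation (0.0132) and library weights (0.0491). rpa2 was at 49.5 ± 10.2 FPKM in MYC and 55.0 ± 15.0 FPKM in MYCN (-0.14, adjusted p = 0.719). rpa3, the small subunit, was at 44.5 ± 17.7 FPKM in MYC and 71.1 ± 20.1 FPKM in MYCN (-0.71 ± 0.31, adjusted p = 0.145). In a fit over MYC 1 to 4 and MYCN 1 to 4 that blocked on the replicate number, rpa3 was at -0.76 and passed (adjusted p = 0.0437).

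In all, 7 members had every MYC library below every MYCN library: mcm3, mcm4, mcm5, mcm6, orc6, rfc1 and rpa1. That is 7 of 33, where 5.60% of all genes tested had this order. No member had every MYC library above every MYCN library, an order seen in 3.73% of all genes.

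The genes acting behind the fork did not pass. fen1, the nuclease that trims Okazaki fragments, was at 26.3 ± 5.31 FPKM in MYC and 23.7 ± 5.81 FPKM in MYCN (0.15, 95% interval -0.30 to 0.60, adjusted p = 0.690). lig1, the ligase that joins those fragments, found under its older name, was at 2.80 ± 0.916 FPKM in MYC and 4.51 ± 0.811 FPKM in MYCN (-0.56, adjusted p = 0.113). chaf1a and chaf1b, subunits of the CAF-1 chaperone that places histones on new DNA, had log2 fold changes of -0.39 (adjusted p = 0.347) and -0.36 (adjusted p = 0.436). chaf1a was at 25.3 ± 9.04 FPKM in MYC and 32.3 ± 5.70 FPKM in MYCN, well above chaf1b, at 1.19 ± 0.791 FPKM in MYC and 1.85 ± 1.17 FPKM in MYCN.

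hells, a chromatin remodeller linked to DNA methylation, was at 2.38 ± 1.25 FPKM in MYC and 3.86 ± 0.656 FPKM in MYCN (-0.59 ± 0.26, adjusted p = 0.152). It passed without MYC 1 (adjusted p = 0.0434), its highest MYC library at 5.12 FPKM, and against MYC 5 to 8 alone (-0.84, adjusted p = 0.0481). The fork protection genes tipin and timeless, whose products work as a pair, had log2 fold changes of opposite sign and did not pass. tipin was at 14.4 ± 3.82 FPKM in MYC and 11.9 ± 4.04 FPKM in MYCN (0.27, adjusted p = 0.543), and timeless was at 15.0 ± 2.23 FPKM in MYC and 17.8 ± 1.0 FPKM in MYCN (-0.24, adjusted p = 0.364). e2f7, an atypical E2F that represses S phase genes, stayed between 0.0610 and 0.705 FPKM in MYC and between 0.127 and 0.652 FPKM in MYCN and was not tested.

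A ratio between members of the same library does not depend on how libraries were scaled to each other. The ratio of mcm4 to pcna was 0.43 ± 0.13 in MYC (0.27 to 0.63) and 1.27 ± 0.33 in MYCN (1.07 to 1.77). The summed MCM level over the summed RFC level was 0.75 ± 0.22 in MYC (0.50 to 1.09) and 1.93 ± 0.68 in MYCN (1.23 to 2.82). Over the summed RPA level it was 0.86 ± 0.21 in MYC (0.49 to 1.17) and 1.67 ± 0.37 in MYCN (1.23 to 1.98). In these 3 ratios no MYC library reached the lowest MYCN library. The MCM genes summed here fell in the fit on these same libraries, so part of this separation follows from that choice. Taken singly, mcm5 and mcm7 overlapped between the groups over both summed RFC and summed RPA, and mcm6 overlapped over summed RPA. The summed MCM level over pcna overlapped, from 1.42 to 4.75 in MYC and from 3.48 to 6.09 in MYCN. Of the single genes that fell, only mcm4 had all MYC libraries below all MYCN libraries relative to pcna, 1 of 6, while 4 of 6 did relative to summed RFC and 2 of 6 relative to summed RPA. The ratio of mcm6 to pcna, for example, was 0.76 ± 0.32 in MYC and 0.91 ± 0.25 in MYCN. These ratios share their parts and are given as a description. The 6 genes were taken because they fell in the fit on these same libraries. The share of all genes with such separated ratios was not computed, so the counts have nothing to be set against.

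**Figure D4:**
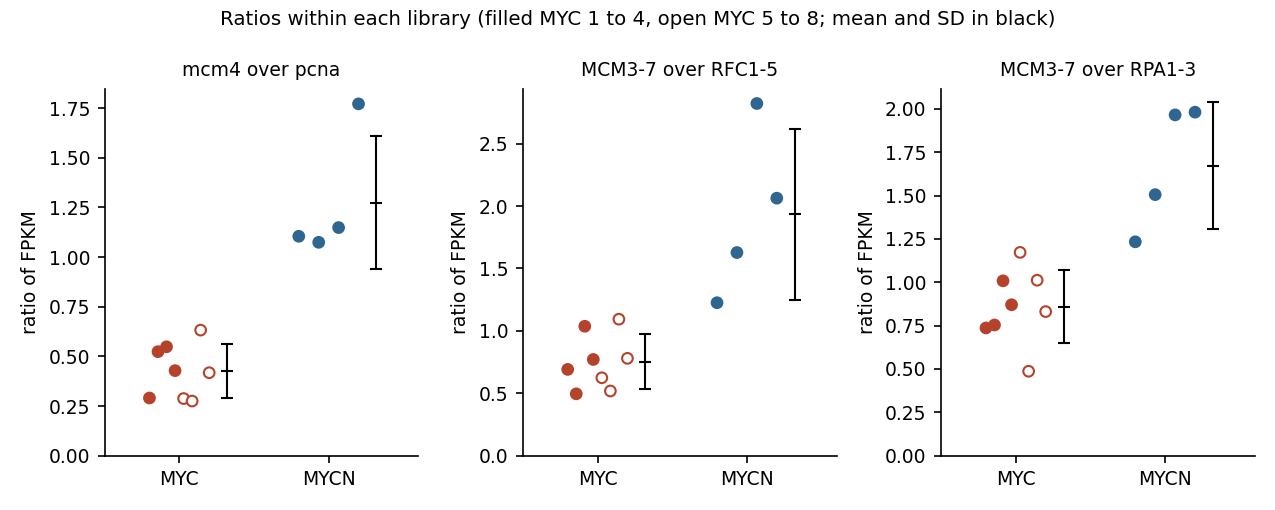
Ratios of FPKM within each library, of mcm4 to pcna and of summed mcm3 to mcm7 to the summed RFC and RPA genes, with mean and SD in black, MYC left of MYCN (filled MYC points are MYC 1 to 4, open ones MYC 5 to 8). In each panel all 8 MYC points lie below all 4 MYCN points. The genes mcm3 to mcm7 fell in the fit on these same libraries. The summed level of mcm3 to mcm7 over pcna, not drawn, overlapped between the groups.

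Both MYC sets held the low MCM levels. Against MYCN, 6 members fell in MYC 1 to 4 alone (4.69% of all genes fell and 4.80% rose), the same 6 as with all 8 libraries. In MYC 5 to 8 alone 5 fell (4.73% of all genes fell and 4.12% rose): mcm3, mcm4, mcm5, orc6 and hells. mcm6 then had a log2 fold change of -0.72 (adjusted p = 0.0639) and mcm7 of -1.38 (adjusted p = 0.101). With the replicate block, 7 members fell, the 6 and rpa3, where 13.3% of all genes fell and 10.2% rose. These comparisons share the MYCN libraries.

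Set against each other, the MYC sets gave no called member. In MYC 5 to 8 against MYC 1 to 4, limma called none of the 33 in either direction (0.104% of all genes rose and 0.354% fell). At an unadjusted p under 0.05 there were 0 members, where 3.09% of all genes were higher and 5.67% lower. The lowest adjusted p of a member was 0.720, that of cdc45, at 1.07 ± 0.756 FPKM in MYC 5 to 8 and 2.31 ± 1.56 FPKM in MYC 1 to 4. The median log2 fold change of the members was -0.01, with 17 lower and 16 higher in MYC 5 to 8. mcm4 was at 16.8 ± 6.89 FPKM in MYC 5 to 8 and 21.0 ± 5.07 FPKM in MYC 1 to 4, a difference of -0.37 (adjusted p = 0.937).

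Many members had their highest or lowest value in the same library. Within MYC, MYC 1 was the highest library for 15 of the 33 members, while MYC 3 was the lowest for 10 and MYC 4 for 9. Within MYCN, MYCN 1 was the highest for 16 and MYCN 3 for 14, and MYCN 4 was the lowest for 23. The share of all genes with the same extreme libraries was not computed, so these counts have nothing to be set against. All genes tested had median log2 deviations from the mean of 12 libraries of 0.20 in MYC 1, -0.28 in MYC 3 and -0.22 in MYC 4. Those of the members were 0.24, -0.31 and -0.46. In MYCN 1, MYCN 3 and MYCN 4 the medians were 0.20, -0.19 and -0.03 over all genes tested and 0.53, 0.45 and -0.20 over the members. MYCN 3 held the highest mcm4, mcm5, mcm7 and pold1 values, and MYCN 4 the highest orc6 value but low gins2, rpa3 and pcna values. As medians of the deviation from the mean of 12 libraries on the log2 scale, the 6 members that fell lay between -0.65 and -0.09 in MYC libraries and between 0.69 and 1.23 in MYCN libraries. The 27 that did not pass lay between -0.40 and 0.33 in MYC and between -0.24 and 0.42 in MYCN. Members were divided into the 6 and the 27 by the fit on these same libraries, so this contrast follows from that choice. The median coefficient of variation of the members was 31.8% in MYC and 34.1% in MYCN, against 35.6% in MYC and 31.6% in MYCN over all genes tested.

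**Figure D5:**
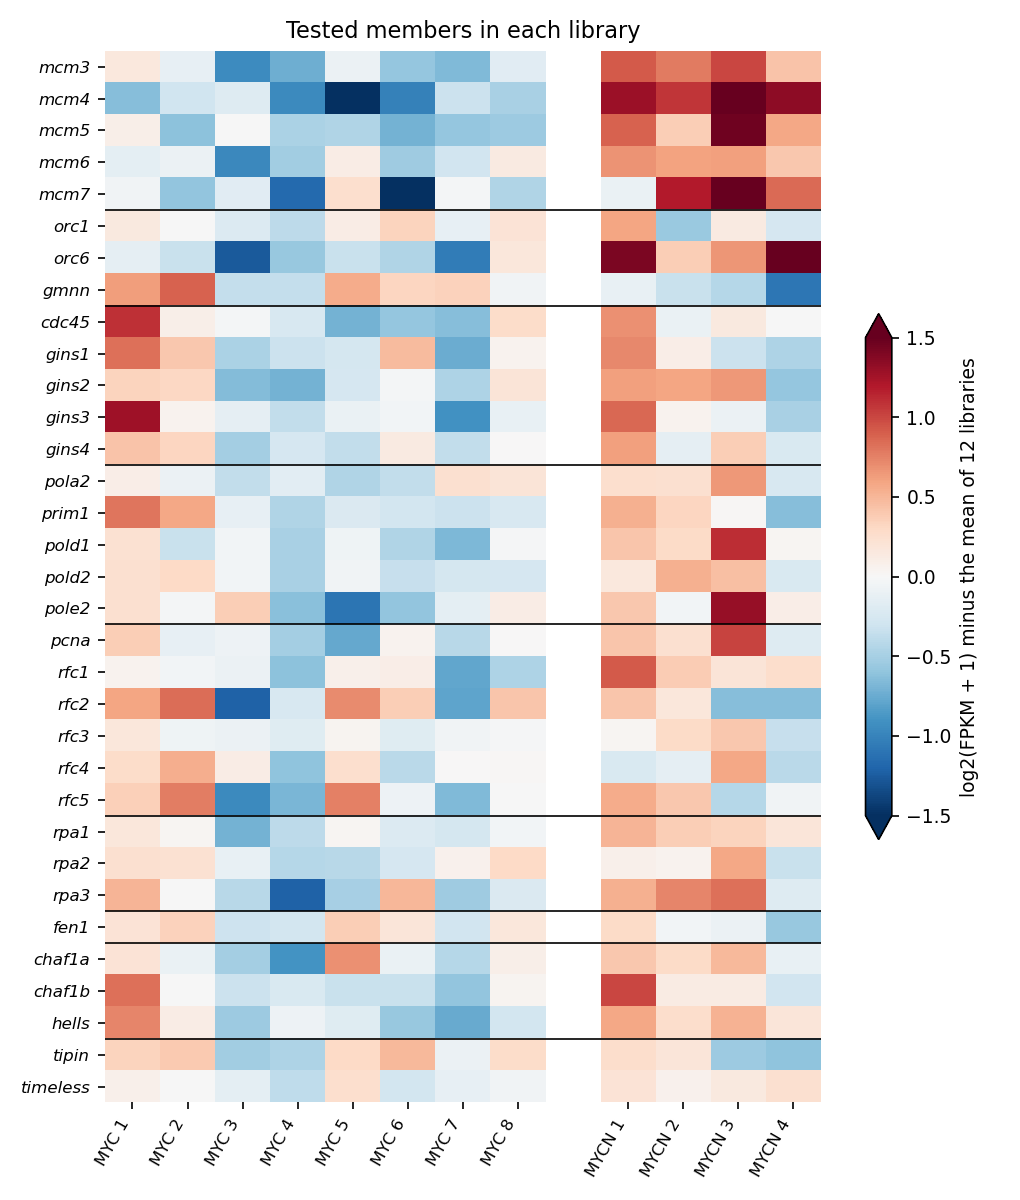
Deviation of log2(FPKM + 1) from the mean of the 12 libraries for the 33 members tested, with MYC 1 to 8 left of MYCN 1 to 4 and black lines between complexes. The rows of mcm3 to mcm6 and orc6 are lower across MYC than across MYCN, and most rows of the other complexes vary as much within a group as between groups.

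Macrophage and pan-leukocyte markers were higher in MYC by log2 fold change, and their summed levels overlapped between the groups. Of 14 macrophage markers tested, 7 rose and 0 fell, with a median log2 fold change of 1.89, and their summed level was 274 to 1869 FPKM in MYC and 57.7 to 804 FPKM in MYCN. Among the 7 were mpeg1, c1qa and spi1b, and 5.77% of all genes tested rose. The count of macrophage markers that rose was 6 without MYCN 1, MYCN 2 or MYCN 4. It was 12 with library weights or the replicate block, where 9.67 and 10.2% of all genes rose. Of 7 pan-leukocyte markers, 6 rose, lcp1 and rac2 among them, with sums of 85.3 to 276 FPKM in MYC and 26.8 to 99.5 FPKM in MYCN. Without MYCN 1 or without MYCN 4 the count of pan-leukocyte markers that rose was 2, without MYCN 2 it was 3, and against MYC 5 to 8 alone it was 2. The summed sympathoadrenal markers were lower in every MYC library than in any MYCN library, as given above. Of single genes tested, 5.60% had that order. By log2 fold change 2 of the 8 sympathoadrenal markers were higher in MYC. The macrophage sum was 274 to 374 FPKM in MYC 5 to 8 and 608 to 1869 FPKM in MYC 1 to 4. Its median in MYCN was 117 FPKM. The part of macrophages and of other cells in the difference of the MCM genes and orc6 was not tested.

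None of the 8 erythroid markers tested was called, with sums of 54.1 to 1290 FPKM in MYC and 318 to 663 FPKM in MYCN. Of the endothelial genes, 5, among them kdrl, cdh5 and fli1a, were under 1 FPKM in every library, and the endothelial sum was 0.209 to 2.87 FPKM in MYC and 0.342 to 0.674 FPKM in MYCN. Sums over T and B cell markers (2.32 to 30.6 FPKM in MYC and 4.34 to 10.8 FPKM in MYCN) and over kidney and adrenal cortex markers (6.93 to 54.8 FPKM in MYC and 10.7 to 21.3 FPKM in MYCN) overlapped. None of these genes was called in the main fit. Of the 3 T and B cell markers tested, 2 rose with the replicate block and against MYC 1 to 4 alone. Of all genes, 10.2 and 4.80% rose in those settings, in that order. At an unadjusted p under 0.05, 2 of the 5 kidney and adrenal cortex markers tested were higher in MYC, and the median log2 fold change of the 5 was 0.93. With library weights, the replicate block or MYC 1 to 4 alone, 2 of the 5 rose, where 9.67, 10.2 and 4.80% of all genes rose. With a pseudocount of 0.1, median-ratio scaling or MYC 5 to 8 alone, or without MYC 4 or MYC 7, 1 rose. In the settings with 1, between 4.12 and 8.33% of all genes rose. Of the 2 melanocyte markers tested, mitfa, the melanocyte transcription factor, fell (at most 0.13 FPKM in MYC and 23.7 to 50.3 FPKM in MYCN, -5.01 ± 0.20, adjusted p = 1.0e-09). The other, pmela, was higher in MYC at an unadjusted p under 0.05 (log2 fold change 0.92) but was not called. It rose with library weights and without MYCN 1 or MYCN 3. The sum of the melanocyte markers was 70.0 to 94.8 FPKM in MYC and 45.2 to 107 FPKM in MYCN, and 5 of them were under 1 FPKM in every library.

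The other genes of S phase and division were taken from 5 lists, and few of them were called. Of 27 further replication genes tested, limma called none, 19 were lower in MYC and the median log2 fold change was -0.29. At an unadjusted p under 0.05, 2 of them were higher and 4 lower. Of 8 S phase checkpoint genes none was called, 4 were lower, the median was 0.04, and at an unadjusted p under 0.05 there was 1 in each direction. Of 22 genes of the E2F-RB switch and the S phase cyclins none was called, 16 were lower and the median was -0.33, with 1 higher and 6 lower at an unadjusted p under 0.05. Over all genes tested the median was -0.05, 5.77% rose and 7.63% fell. At an unadjusted p under 0.05, 12.9% of them were higher and 15.7% lower.

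Of 13 genes that supply deoxynucleotides, 1 fell and none rose, and 10 were lower, with a median of -0.29. The share that fell, 7.69%, was near the 7.63% of all genes. At an unadjusted p under 0.05, 1 was higher and 4 lower. The one that fell was tyms, which makes thymidylate for DNA synthesis, at 3.49 ± 1.77 FPKM in MYC and 7.98 ± 3.34 FPKM in MYCN (-1.01 ± 0.31, adjusted p = 0.0469). Its call ended in 9 of the 12 fits that leave out a library, with adjusted p between 0.0186 and 0.152 over the 12, and held without MYC 1, MYC 3 or MYCN 2.

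Of 34 mitosis genes, 2 fell and none rose, and 31 were lower in MYC, with a median of -0.38. The share that fell, 5.88%, was under the 7.63% of all genes, and at an unadjusted p under 0.05, 1 was higher and 4 lower. plk4, the kinase that starts centriole duplication, was at 2.28 ± 0.536 FPKM in MYC and 4.70 ± 1.03 FPKM in MYCN (-0.80 ± 0.20, adjusted p = 0.0167), and did not pass without MYCN 2 (0.0655) or MYCN 4 (0.0706). ect2, an exchange factor of cytokinesis, was at 3.19 ± 5.46 FPKM in MYC and 12.1 ± 5.27 FPKM in MYCN (-2.12 ± 0.54, adjusted p = 0.0189), and did not pass without MYCN 4 (0.0759). Against MYC 5 to 8 alone the adjusted p was 0.101 for plk4 and 0.143 for ect2. In MYC 5 to 8 against MYC 1 to 4, 31 of the 34 mitosis genes were lower, with a median of -0.76, against 38.5% of all genes and a median of 0.09. limma called none of the mitosis genes. At an unadjusted p under 0.05, 6 were lower and 0 higher, where 5.67% of all genes were lower and 3.09% higher. As median log2 deviations from the mean of 12 libraries, the mitosis genes overlapped between the MYC sets. They lay between -0.35 and 1.09 in MYC 1 to 4, and between -0.97 and 0.33 in MYC 5 to 8. The replication members had a median of -0.01 in that comparison, and the difference between the lists was not tested.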

How the data were processed

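RNA of sorted EGFP+ cells was sequenced as paired reads once ribosomal RNA had been removed, per the labels' protocols. The submitters' processing notes name cutadapt, TopHat2 2.0.11 and Cufflinks 2.2.1. The genome build, annotation and measure of depth are not given in the sources used here. Deposited by the authors were FPKM values, 1 per gene and library, which are not counts. With depth unknown, the spread between libraries sets the precision.

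Genes that reached 1 FPKM in 4 or more of 12 libraries were fitted in R 4.3.3 with limma 3.58.1 (lmFit, eBayes with a mean-variance trend) on log2(FPKM + 1), two-sided, with Benjamini-Hochberg adjustment over all 9606 genes and a threshold of 0.05. The fit was tested on simulated data. Older names were matched through RefSeq synonyms of assembly GRCz12tu. A further 10 rows carry a date in place of a gene name and were left unmatched.

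The members, the lists and the tests were chosen with earlier results of these data known. The genes named are every member, each called gene of the pathway lists and at most 3 defining genes of a cell type list. Besides these, hand2, pmela, mcm3l, mcm6l and orc2 to orc5 were chosen after their values were seen, and eef1a1l1 was named for its values of 0.

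Same-numbered MYC and MYCN libraries deviated together across genes (correlations 0.363, 0.471, 0.564 and 0.163, all over 0.1), although MYCN 4 matched MYC 3 best, so a replicate block over MYC 1 to 4 and MYCN 1 to 4 was run. What a number stands for is not in the labels. Alternatives varied the pseudocount, the filter, the scaling, library weights and the libraries included.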

Additional observations from a re-analysis of the deposited data

Results flagged for a closer look

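In 66 groups of values (33 members in each of MYC and MYCN), 3 held a library far from the others of its group, where chance gives about 1 in 20. gins2 was at 9.76 FPKM in MYCN 4, against 23.3 to 24.3 FPKM in the other MYCN libraries. gins3 was at 6.21 FPKM in MYC 1, against 0.589 to 2.09 FPKM in the other MYC libraries. chaf1b was at 3.03 FPKM in MYC 1, against 0.511 to 1.34 FPKM in the other MYC libraries. None of these genes was called between MYC and MYCN.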

How the results depend on the processing

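Without single libraries, between 5 and 7 members fell, 0 rose, and their median log2 fold change ran from -0.49 to -0.29. In those fits 4.35 to 7.53% of all genes fell and 3.01 to 6.54% rose. With median-ratio scaling, quantile normalisation or library weights 8 members fell, and 1 member, gmnn, rose with median-ratio scaling and with library weights. Of all genes, 7.71, 8.70 and 10.9% fell in these 3 settings, in that order, and 8.33, 7.98 and 9.67% rose. The cause was not tested. Between the MYC sets no alternative called a member. In the lists, the count that rose was 1 with library weights for further replication, deoxynucleotide and mitosis genes, 1 with median-ratio scaling for E2F-RB and mitosis genes, and 1 with quantile normalisation for mitosis genes. The count that fell was 1 for further replication genes with library weights and with the replicate block. For deoxynucleotide genes it was 0 with a pseudocount of 0.1, no filter, a mean of 5 FPKM, median-ratio scaling, quantile normalisation or MYC 1 to 4 alone, and 2 with library weights or MYC 5 to 8 alone. For E2F-RB genes it was 2 with median-ratio scaling, library weights, the replicate block or MYC 5 to 8 alone, and 3 with quantile normalisation. For mitosis genes it was 1 with a mean of 5 FPKM and 0 with MYC 5 to 8 alone, and 2 rose with the replicate block. Without single libraries the lists gave 0 to 3 that fell (mitosis 0 to 3, deoxynucleotide and E2F-RB 0 to 2, further replication 0 to 1, checkpoint 0) and 0 to 1 that rose. Their causes were not tested. Over all genes, 554 rose and 733 fell, against 984 and 1277 with the replicate block, 929 and 1049 with library weights, 800 and 741 with median-ratio scaling, 767 and 836 with quantile normalisation, and 289 and 418 without MYCN 4. Of the members, the replicate block changed only the call of rpa3. No direction of a called member was reversed. Copies such as mcm6l may share reads, and a level near 0 limits cdc6, mcm10, pole and e2f7.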
